A study of Mus musculus with 24 samples.

Results

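The matrix metalloproteinases (MMP), the ADAM, ADAMTS and ADAMTS-like (ADAMTSL) proteins and the tissue inhibitors of metalloproteinases (TIMP) were followed across 2 zones of the mouse growth plate in Ezh1/2 and wild-type mice. Members were taken by name alone, as every gene symbol on the array that starts with Mmp, Adam, Adamts, Adamtsl or Timp followed directly by a digit. This gave 83 of the annotated genes, on 91 of 41345 probe sets. For 82 genes there was a probe set that carries no other symbol (22 MMP, 33 ADAM, 18 ADAMTS, 5 ADAMTSL and 4 TIMP genes of 22180 genes so measured), and these are described. The other gene shares its probe sets with further symbols and is not named.

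RNA came from the hypertrophic zone (HZ) and the proliferative zone (PZ) of the proximal tibial growth plate of mice 3 days old, cut out by laser capture microdissection, with the sections of 1 animal combined for an array. The 4 groups of 6 arrays each were the HZ of Ezh1/2 mice (labelled Ezh2 KO), the HZ of wild-type mice, the PZ of Ezh1/2 mice and the PZ of wild-type mice. In the study's crosses both genotypes carried Col2-cre, in which a collagen II promoter drives Cre in cartilage, and both lacked Ezh1 (Ezh1-/-). The Ezh1/2 mice were Ezh2 fl/fl and the mice called wild-type Ezh2 +/+, so the comparison is of Ezh2 loss in cartilage on an Ezh1-/- background, and cells in which this promoter is silent keep Ezh2.

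MMPs are zinc proteases that are secreted or held at the cell surface as inactive proenzymes, and among them they cleave collagens, aggrecan and other matrix proteins. ADAMs are mostly membrane proteases that cut the outer parts off growth factors, receptors and adhesion proteins. ADAMTS proteases are secreted and cut proteoglycans, procollagens and microfibril proteins, whereas ADAMTSL proteins share their accessory domains but have no protease domain. TIMPs block the active sites of these enzymes. In the growth plate, hypertrophic cartilage is resorbed at its border with bone by chondrocytes, by osteoclasts and by cells that come in with blood vessels.

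Values are robust multi-array average (RMA) levels on the log2 scale, on which 1 unit is a doubling, and they do not tell whether a gene is above background. Ezh2, the deleted gene, had PZ levels of 5.85 to 6.67 in Ezh1/2 mice and of 6.88 to 7.27 in wild-type mice, without overlap (difference -0.63, standard error 0.14, adjusted p = 0.0852). In the HZ it had levels of 6.20 to 6.61 in Ezh1/2 mice and of 5.88 to 6.60 in wild-type mice (difference 0.17, standard error 0.12, adjusted p = 0.899), so this probe set does not bear out the labels of the HZ arrays. Whether its probes fall in the floxed exons was not looked up. The arrays of a group correlated with r from 0.894 to 0.946 in the HZ and from 0.954 to 0.974 in the PZ. Every HZ array had a narrower interquartile range of values (1.35 to 1.78) than every PZ array (1.79 to 2.02). The zone differences thus compare arrays of unlike spread. The narrowest were 3 HZ arrays (Ezh1/2 1, wild-type 1 and wild-type 4), called the arrays of narrow range below. Sex-linked genes did not match between the 2 zones for wild-type numbers 3 and 5, so these numbers may not mark 1 animal each. Of 6 HZ markers 5, among them Col10a1 and Ihh, were higher in the HZ of both genotypes and Sp7 was lower (-0.65 in Ezh1/2 and -0.59 in wild-type mice), and endothelial and osteoclast markers were also higher in the HZ.

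Few of these genes were called as different between the genotypes, by tests that can miss changes. In simulated data the HZ test recovered 5 of 50 rises of 0.5 and 27 of 50 rises of 1 on the log2 scale. The PZ test recovered 21 of 50 and 43 of 50. The simulated HZ data also held 50 rises of 2 and 50 falls of 1, of which 43 and 31 were recovered. In the real HZ comparison 7 of 41345 probe sets passed. The adjusted test was thus stricter there, and the HZ rates may be too high. In Ezh1/2 mice Adamts9 rose in the HZ and Adam33 in the PZ, and no other of the 82 members passed an adjusted p of 0.05 between the genotypes. Adamts9 encodes a large secreted protease that cleaves versican and aggrecan. The HZ levels of Adamts9 were 5.80 to 6.56 (median 6.16) in Ezh1/2 mice and 4.80 to 5.24 (median 4.93) in wild-type mice. Every HZ array of Ezh1/2 mice was above every HZ array of wild-type mice, a 2.23-fold difference. On the log2 scale it was 1.15 (standard error 0.14, adjusted p = 0.0254, limma with Benjamini-Hochberg adjustment over all probe sets, 6 arrays a group). This was 1 of 82 members higher (1.22%), and over all 22180 genes 0.018% were higher by the same rule. No member was lower in the HZ, where an unadjusted p under 0.05 was reached by 6 members with higher and 2 with lower values (3.74% and 3.19% of all genes, with 0.00451% lower after adjustment), and the unmoderated test called none in either direction.

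**Figure D1:**
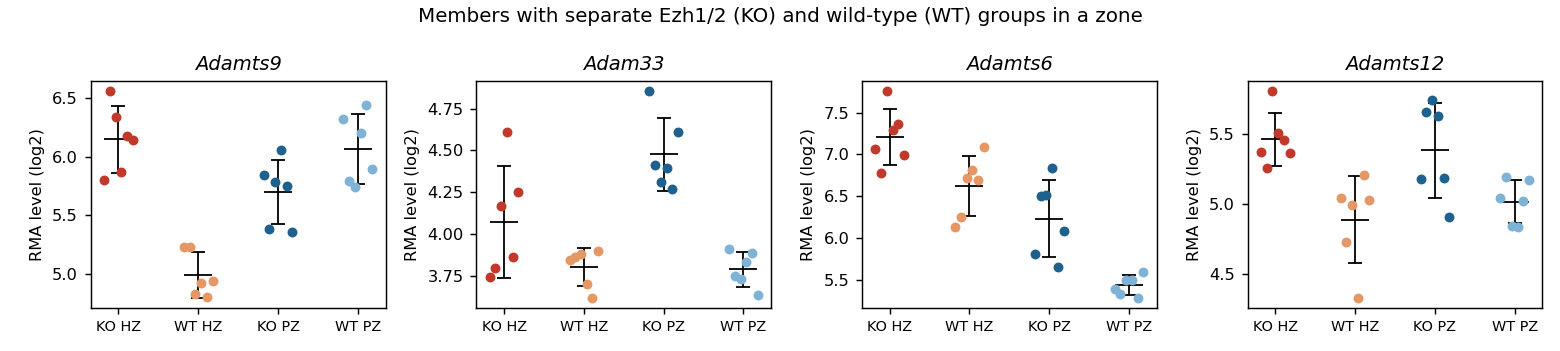
RMA level (log2) of Adamts9, Adam33, Adamts6 and Adamts12 on each array of the HZ and the PZ of Ezh1/2 (KO) and wild-type (WT) mice. Points are arrays, and bars give the mean and SD of 6 arrays. The Adamts9 points of Ezh1/2 HZ (5.80 to 6.56) lie above those of wild-type HZ (4.80 to 5.24), whereas the PZ groups overlap.

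In the PZ the same gene had lower values in Ezh1/2 mice, the opposite direction, without passing the adjusted test (unadjusted p = 0.0324, limma). Adamts9 had PZ levels of 5.36 to 6.06 (median 5.77) in Ezh1/2 mice and of 5.74 to 6.44 (median 6.05) in wild-type mice, and the groups overlapped (difference -0.37, standard error 0.15, adjusted p = 0.584). The genotype effect in the HZ was larger than that in the PZ by 1.52 (standard error 0.21, adjusted p = 0.00234). Adamts9 was the 1 member to pass this test of the difference between zones, against 0.0271% of all genes in this direction. No member passed in the other direction, against 0.0406%. At an unadjusted p under 0.05 there were 4 members in the direction of Adamts9, against 3.44% of all genes, and 5 in the other, against 3.83%. The zone difference of Adamts9 had opposite signs in the 2 genotypes. The gene was higher in the HZ than in the PZ of Ezh1/2 mice by 0.45 (standard error 0.15, adjusted p = 0.021), with overlap of the groups, and lower in the HZ than in the PZ of wild-type mice by 1.07 (standard error 0.15, adjusted p = 4.98e-06), without overlap. These tests share arrays and are not separate evidence.

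The HZ call for Adamts9 sits near the threshold, while its direction does not change. The difference was 1.07 to 1.22 with 1 array left out, and the adjusted p was above 0.05 without Ezh1/2 HZ array 2, 3, 5 or 6 or without wild-type HZ array 2, 3, 4, 5 or 6 (0.0539 to 0.108). It was 0.149 without Ezh1/2 HZ arrays 4 and 6 and 0.13 without the 3 arrays of narrow range. With the replicate number as a block across genotypes it was 0.135. The difference between zones passed in each setting run (adjusted p 0.00134 to 0.0386). The higher level of Adamts9 in the HZ than in the PZ of Ezh1/2 mice lost its call without Ezh1/2 PZ array 2 (0.38, adjusted p = 0.0606), without Ezh1/2 PZ array 6 (0.38, adjusted p = 0.0596) or without Ezh1/2 HZ array 2 (0.36, adjusted p = 0.0634).

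The start of Adamts9 is shown because it carries the genotype result. The RefSeq promoter window, from 250 bases before to 50 after the start, lies at chr6:92943485-92943784, minus strand of GRCm38.p6, with CG dinucleotides in capitals.
Adamts9: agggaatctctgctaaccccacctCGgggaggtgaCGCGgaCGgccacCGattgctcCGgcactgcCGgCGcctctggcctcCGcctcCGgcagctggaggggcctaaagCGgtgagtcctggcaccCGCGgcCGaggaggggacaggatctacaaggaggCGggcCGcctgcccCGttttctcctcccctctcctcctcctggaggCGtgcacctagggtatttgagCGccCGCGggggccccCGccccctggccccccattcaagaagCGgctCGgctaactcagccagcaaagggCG
It holds 25 CG dinucleotides, where the median over the 32851 mouse windows of this length is 7, and 18.4% of them hold at least as many. It has no match to the AP-1 motif (TGAGTCA) or the RUNX motif (TGTGGTT), each read on both strands.

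In the PZ, Adam33 rose by 0.69 (standard error 0.10, adjusted p = 0.00846) in Ezh1/2 mice. The call was lost with the replicate number as a block across genotypes (adjusted p = 0.0552). Adam33 is a membrane protease whose gene has been linked to asthma in humans. Its PZ levels were 4.27 to 4.85 (median 4.40) in Ezh1/2 mice and 3.63 to 3.91 (median 3.79) in wild-type mice, so that every Ezh1/2 array lay above every wild-type array. The 1 called member was 1.22% of the 82, against 0.487% of all genes higher in the PZ, and no member was lower, against 0.0496% of all genes. At an unadjusted p under 0.05, 8 members were higher, against 4.64% of all genes, and 5 lower, against 3.41%. HZ levels of Adam33 were 3.74 to 4.61 (median 4.02) in Ezh1/2 mice and 3.62 to 3.90 (median 3.86) in wild-type mice, with overlap (difference 0.27, standard error 0.15, adjusted p = 0.812). The genotype effects in the 2 zones were not shown to differ (difference -0.42, standard error 0.17, adjusted p = 0.646). Adam33 was lower in the HZ than in the PZ of Ezh1/2 mice by 0.40 (standard error 0.12, adjusted p = 0.0131), while the wild-type zones differed by 0.01 (standard error 0.12, adjusted p = 0.944).

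Adamts6 had separate PZ groups without passing the adjusted test. Adamts6 and Adamts10 are related proteases that act around fibrillin microfibrils. PZ levels of Adamts6 were 5.65 to 6.83 (median 6.29) in Ezh1/2 mice and 5.29 to 5.60 (median 5.45) in wild-type mice, a difference of 0.79 (standard error 0.18, adjusted p = 0.0975). The test was passed without Ezh1/2 PZ array 5 (0.91, adjusted p = 0.0332). The Ezh1/2 arrays spread over more than 1 log2 unit and the wild-type arrays over far less, yet the groups did not overlap. HZ levels were 6.78 to 7.75 (median 7.18) in Ezh1/2 mice and 6.14 to 7.09 (median 6.71) in wild-type mice, with overlap (difference 0.59, standard error 0.19, adjusted p = 0.529). Adam22, an ADAM of the nervous system without protease activity, and Adamtsl5 also had separate PZ groups, by 0.23 (standard error 0.06, adjusted p = 0.224) for Adam22 and 0.29 (standard error 0.08, adjusted p = 0.289) for Adamtsl5. So 4 of 82 members had no overlap and higher values in Ezh1/2 PZ (0.839% of all genes), and none had lower values (0.221%).

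In the HZ the groups were separate for Adamts9 and Adamts12 (2 members higher, against 0.406% of all genes, and none lower, against 0.176%). Adamts12 and Adamts7 are proteases that cleave cartilage oligomeric matrix protein. Adamts12 had HZ levels of 5.26 to 5.81 (median 5.42) in Ezh1/2 mice and of 4.33 to 5.21 (median 5.01) in wild-type mice (difference 0.57, standard error 0.15, adjusted p = 0.391). The stromelysin Mmp11 (difference 0.55, standard error 0.18, adjusted p = 0.539), Adamtsl1 (difference 0.38, standard error 0.13, adjusted p = 0.549) and Timp2 (difference 0.72, standard error 0.27, adjusted p = 0.627) were among the 6 members higher at an unadjusted p under 0.05, and the difference of Adamtsl1 was 0.24 without Ezh1/2 HZ arrays 4 and 6. For the difference between zones, the members next to Adamts9 in unadjusted p were Timp2 (difference 0.97, standard error 0.31, adjusted p = 0.42), the procollagen II protease Adamts3 (difference -0.81, standard error 0.31, adjusted p = 0.586), Adamtsl1 (difference 0.37, standard error 0.14, adjusted p = 0.566, and 0.23 without Ezh1/2 HZ arrays 4 and 6) and Adamts17 (difference -0.47, standard error 0.18, adjusted p = 0.587). The median genotype difference of the 82 members was 0.0125 in the HZ and 0.00752 in the PZ, against -0.0104 and -0.00443 over all genes.

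**Figure D2:**
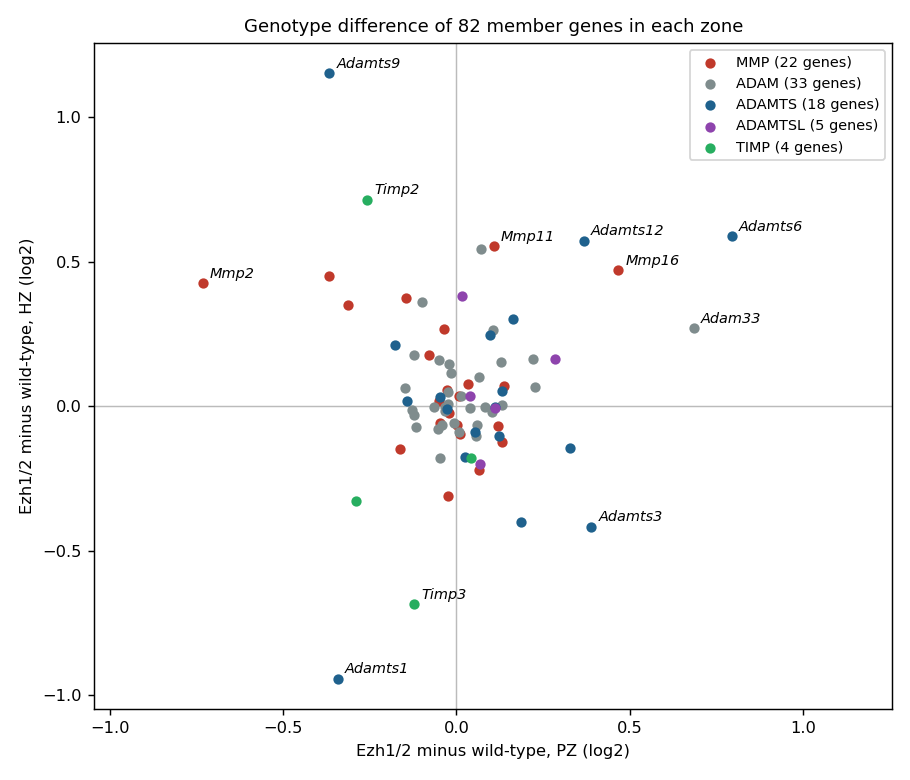
Ezh1/2 minus wild-type difference (log2) of the 82 members in the HZ (vertical axis) and in the PZ (horizontal axis). Each point is a gene, coloured by family. Most points lie near 0, with Adamts9 high in the HZ (1.15) and Adam33 (0.69) and Adamts6 (0.79) to the right in the PZ.

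The proteases and inhibitors best known from cartilage resorption were not called between the genotypes. Mmp13 differed by 0.45 (standard error 0.45, adjusted p = 0.939) in the HZ and by -0.37 (standard error 0.83, adjusted p = 0.978) in the PZ. For Mmp9 the differences were 0.35 (standard error 0.51, adjusted p = 0.964) in the HZ and -0.31 (standard error 0.54, adjusted p = 0.97) in the PZ, and for Mmp14 they were 0.38 (standard error 0.41, adjusted p = 0.945) in the HZ and -0.15 (standard error 0.17, adjusted p = 0.936) in the PZ. Apart from Mmp14 in the PZ, the sign of these values rests on wild-type arrays 1. Without wild-type HZ array 1 the HZ difference was -0.00043 for Mmp13, -0.15 for Mmp9 and -0.03 for Mmp14. Without wild-type PZ array 1 the PZ difference was 0.17 for Mmp13 and 0.04 for Mmp9. The standard errors of Mmp13 and Mmp9 are large, so that changes of this size were not detectable with 6 arrays a group. Among all 82 members, Adamts1 had the most negative difference in the HZ (difference -0.94, standard error 0.32, adjusted p = 0.565), followed by Timp3, the matrix-bound inhibitor (difference -0.68, standard error 0.24, adjusted p = 0.57). Mmp2 had the most negative difference in the PZ (difference -0.73, standard error 0.22, adjusted p = 0.312).

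The zone of the plate separated many more of the members. Of 82 members, 28 were higher and 8 lower in the HZ than in the PZ of Ezh1/2 mice (34.1% and 9.76%), against 19.1% and 17.7% of all genes, and 27 were higher and 7 lower in wild-type mice (32.9% and 8.54%), against 21.6% and 19% of all genes. The median member differed by 0.19 in Ezh1/2 mice and by 0.18 in wild-type mice, against 0.06 and 0.09 over all genes. The HZ and PZ arrays did not overlap for 14 higher and 0 lower members in Ezh1/2 mice (8.36% and 9.19% of all genes) and for 12 higher and 5 lower members in wild-type mice (7.58% and 10.1%). The 2 genotypes share no arrays, but both zone differences came from 1 fit over all 24 arrays. They share its estimate of spread, so the calls of the 2 genotypes are not fully separate evidence. Of the members higher in the HZ, 16 were called in both, 57.1% of the Ezh1/2 list and 59.3% of the wild-type list, and of those lower, 4 (50% and 57.1%). The share of all genes called in both is not given, so whether this agreement is particular to the members cannot be judged. Adamts9 was the 1 member called in opposite directions. Many of the calls are small differences of genes with low values. In wild-type mice 14 of the 27 higher members differed by under 0.5, and 5 of these 14 kept their call after quantile normalization of the arrays, against 12 of the 13 with larger differences. In Ezh1/2 mice 6 of the 11 smaller and 17 of the 17 larger differences kept it. Quantile normalization gave 18 higher and 8 lower members in wild-type mice (69.2% of calls higher, against 79.4% as deposited). In Ezh1/2 mice it gave 24 higher and 8 lower members (75.0%, against 77.8% as deposited). The median member then differed by 0.0961 in wild-type mice and by 0.134 in Ezh1/2 mice. The shares of all genes under this normalization are not given, so the excess of higher members over all genes cannot be judged under it.

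**Figure D3:**
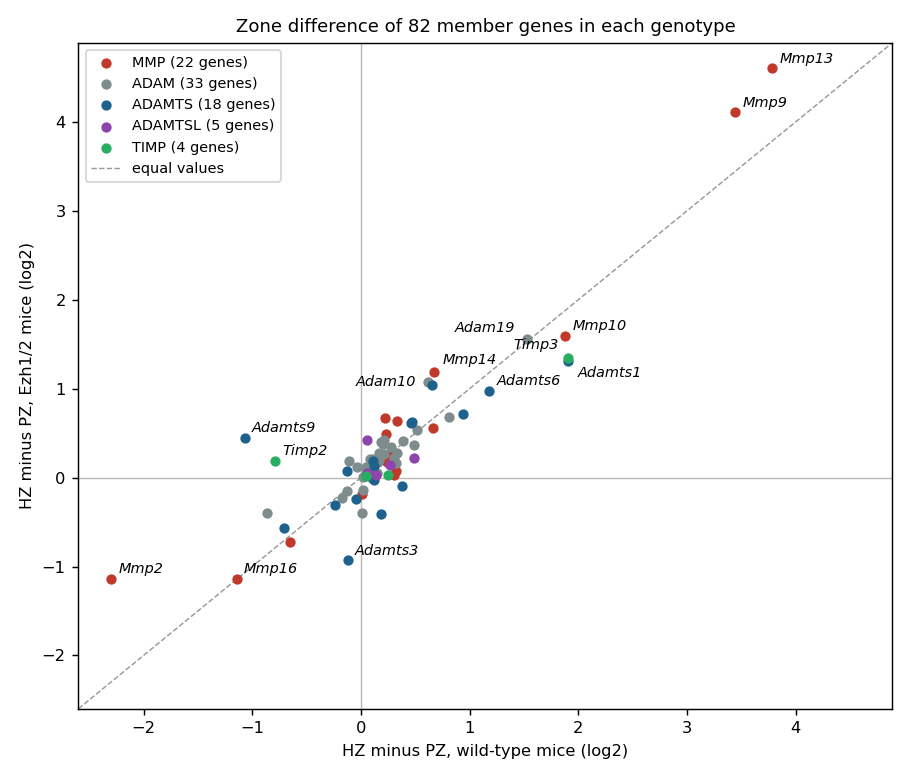
HZ minus PZ difference (log2) of the 82 members in Ezh1/2 mice (vertical axis) and in wild-type mice (horizontal axis). Each point is a gene, coloured by family, and the dashed line marks equal values. Mmp13 (4.60 in Ezh1/2, 3.78 in wild-type mice) and Mmp9 (4.11 in Ezh1/2, 3.45 in wild-type mice) lie at the upper right, Mmp2 at the lower left, and Adamts9 (0.45 in Ezh1/2, -1.07 in wild-type mice) on opposite sides of 0.

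The largest zone differences were those of Mmp13 and Mmp9. Mmp13, the collagenase of late hypertrophic chondrocytes and osteoblasts, had levels of 10.06 to 11.63 (median 11.21) in the HZ and 5.30 to 8.37 (median 6.28) in the PZ of Ezh1/2 mice, and of 8.39 to 11.26 (median 11.09) in the HZ and 3.53 to 9.54 (median 7.24) in the PZ of wild-type mice. It was higher in the HZ by 4.60 (standard error 0.68, adjusted p = 1.55e-05) in Ezh1/2 mice and by 3.78 (standard error 0.68, adjusted p = 0.000155) in wild-type mice. The Ezh1/2 zones did not overlap, whereas wild-type HZ array 1 (8.39) lay below wild-type PZ array 1 (9.54) and the other 5 HZ arrays above every PZ array (10.92 to 11.26). Without these 2 arrays the wild-type difference was 4.77 (adjusted p = 1.98e-06). The PZ arrays spread widely, down to 3.53 in wild-type array 6.

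Mmp9, a gelatinase made in quantity by osteoclasts, followed the same arrays. Its levels were 9.09 to 10.49 (median 9.80) in the HZ and 4.59 to 7.04 (median 5.60) in the PZ of Ezh1/2 mice, and 6.91 to 10.40 (median 9.77) in the HZ and 3.97 to 7.72 (median 6.21) in the PZ of wild-type mice. The zone difference was 4.11 (standard error 0.54, adjusted p = 3.02e-06) in Ezh1/2 mice and 3.45 (standard error 0.54, adjusted p = 2.80e-05) in wild-type mice, and without wild-type arrays 1 of both zones 4.30 (adjusted p = 7.91e-08). As for Mmp13, wild-type HZ array 1 (6.91) was the lowest of its group and wild-type PZ array 1 (7.72) the highest, and they overlapped.

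Osteoclast markers moved with both genes. Of 9 markers (Ctsk, Acp5, Calcr and others), all 9 were higher in the Ezh1/2 HZ and 6 in the wild-type HZ than in the PZ of the same genotype. Their mean level ran from 5.95 to 6.90 in the HZ and from 4.40 to 5.20 in the PZ of Ezh1/2 mice, and from 5.23 to 6.26 in the HZ and from 4.17 to 5.69 in the PZ of wild-type mice. Wild-type HZ array 1 had the lowest HZ value (5.23) and wild-type PZ array 1 the highest PZ value (5.69), the same 2 arrays that overlapped for Mmp13 and Mmp9. The mean of 7 osteoblast markers was not low in wild-type HZ array 1 (7.67, the highest of its group, in which the others ran from 6.32 to 7.62). In the wild-type PZ, array 1 was also the highest (7.79, the others 5.36 to 6.97). Of 8 endothelial markers, 8 were higher in the HZ of both genotypes, with mean levels of 5.12 to 6.32 in the HZ and 3.71 to 4.08 in the PZ of Ezh1/2 mice and of 4.37 to 6.27 in the HZ and 3.69 to 4.80 in the PZ of wild-type mice. Wild-type HZ array 1 (4.37) was again the lowest HZ array and wild-type PZ array 1 (4.80) the highest PZ array. For 7 macrophage and monocyte markers these arrays were the lowest of the wild-type HZ (5.22) and the highest of the wild-type PZ (5.68). Other lists did not follow. Wild-type HZ array 1 had the highest mean of 5 PZ markers among all HZ arrays (8.54, the other wild-type ones 7.74 to 8.47). Its mean of 6 HZ markers was 9.99 (the others 9.805 to 10.26), and that of 7 neutrophil markers 6.90 (the others 4.96 to 7.13). The low HZ and high PZ values of arrays 1 were thus not particular to osteoclast markers, and not common to all lists. In such dissected tissue, fewer cells of a type and less RNA per cell cannot be told apart, and the part of these cells in the zone differences was not tested. Between the genotypes the osteoclast mean in the HZ was higher in Ezh1/2 mice by 0.53 (exact permutation p = 0.0433, two-sided, and 0.807 after adjustment over 20 such tests).

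**Figure D4:**
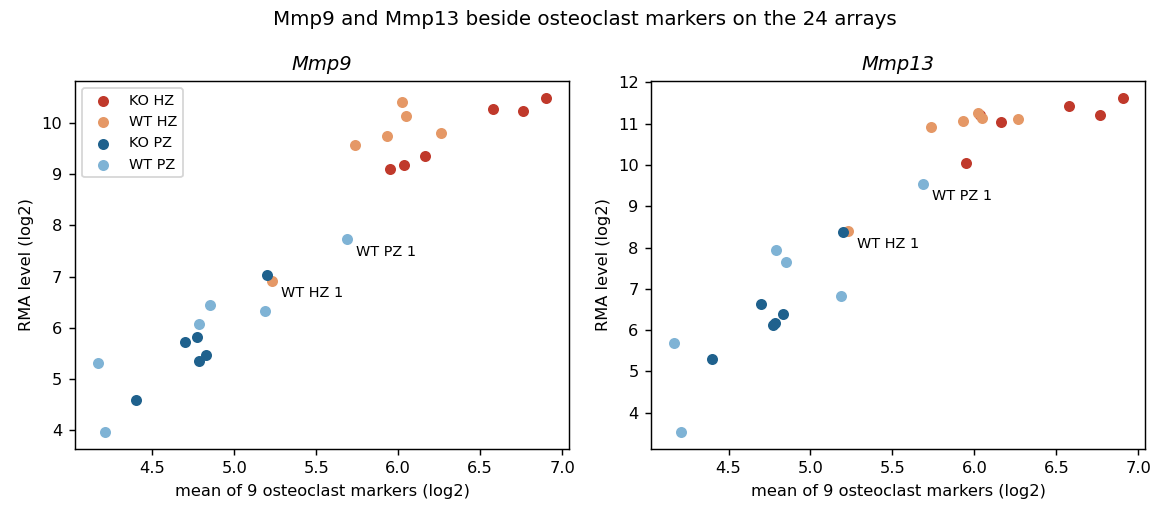
RMA level (log2) of Mmp9 and Mmp13 (vertical axes) against the mean level of 9 osteoclast markers (horizontal axis) on the 24 arrays, coloured by group. HZ arrays lie at the upper right and PZ arrays at the lower left, with wild-type HZ array 1 and wild-type PZ array 1 between them.

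Mmp10, a stromelysin that cleaves proteoglycans and activates other MMPs, was higher in the HZ by 1.60 (standard error 0.31, adjusted p = 0.00032) in Ezh1/2 mice and by 1.88 (standard error 0.31, adjusted p = 4.88e-05) in wild-type mice. Its levels were 5.09 to 6.98 (median 5.97) in the HZ and 4.15 to 4.61 (median 4.42) in the PZ of Ezh1/2 mice, and 4.77 to 7.13 (median 6.33) and 4.17 to 4.62 (median 4.34) in the same zones of wild-type mice, with no overlap in either genotype. The PZ arrays of Mmp10 lay close together and the HZ arrays spread widely. The stromelysins Mmp3 and Mmp11 were called in Ezh1/2 mice, where Mmp3 was higher in the HZ by 0.49 (standard error 0.12, adjusted p = 0.00276) while Mmp11 was higher by 0.67 (standard error 0.14, adjusted p = 0.00101). In wild-type mice Mmp3 differed by 0.23 (standard error 0.12, adjusted p = 0.127) while Mmp11 differed by 0.22 (standard error 0.14, adjusted p = 0.23). A second probe set of Mmp11 was called in both genotypes (0.83, adjusted p = 2.39e-05, in Ezh1/2 mice and 0.44, adjusted p = 0.00967, in wild-type mice), so the probe sets of Mmp11 disagree on the wild-type call.

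Mmp13, Mmp3 and Mmp10 belong to a cluster of 10 Mmp genes on chromosome 9, which run in the order Mmp13, Mmp12, Mmp1b, Mmp3, Mmp1a, Mmp10, Mmp8, Mmp27, Mmp20 and Mmp7 in the RefSeq annotation. Zone differences were uneven along it, since Mmp13 and Mmp10 exceeded 1.5 in both genotypes and the 8 others ranged from 0.02 to 0.64 in Ezh1/2 mice and from 0.11 to 0.33 in wild-type mice. The promoter windows of 3 members that were higher in the HZ are given for comparison, with matches to the AP-1 motif TGAGTCA, or its reverse TGACTCA, and in Mmp13 also to the RUNX motif TGTGGTT, or its reverse AACCACA, in capitals. They lie at chr9:7272264-7272563, plus strand, at chr9:7502092-7502391, plus strand and at chr9:7445572-7445871, plus strand of GRCm38.p6.
Mmp13: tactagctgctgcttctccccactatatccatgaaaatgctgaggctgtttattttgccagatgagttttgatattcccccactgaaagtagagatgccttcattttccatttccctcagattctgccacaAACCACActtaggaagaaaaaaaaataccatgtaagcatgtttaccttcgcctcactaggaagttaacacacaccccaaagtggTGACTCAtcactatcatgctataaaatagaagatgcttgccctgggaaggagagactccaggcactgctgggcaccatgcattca
Mmp10: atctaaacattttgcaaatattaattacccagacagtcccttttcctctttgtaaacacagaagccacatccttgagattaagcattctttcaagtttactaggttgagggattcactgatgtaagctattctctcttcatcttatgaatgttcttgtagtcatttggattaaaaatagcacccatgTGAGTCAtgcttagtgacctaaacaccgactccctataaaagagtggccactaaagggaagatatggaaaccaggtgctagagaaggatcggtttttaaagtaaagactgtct
Mmp3: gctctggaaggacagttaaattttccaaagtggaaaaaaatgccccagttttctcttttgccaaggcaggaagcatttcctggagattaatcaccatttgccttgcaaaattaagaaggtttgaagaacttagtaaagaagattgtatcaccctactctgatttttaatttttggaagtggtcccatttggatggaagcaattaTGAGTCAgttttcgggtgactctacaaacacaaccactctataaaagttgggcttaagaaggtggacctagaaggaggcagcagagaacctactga
The AP-1 match begins 35 bases before the start in Mmp13, 63 in Mmp10 and 46 in Mmp3, and the RUNX match of Mmp13 begins 119 bases before it. Of the 10 genes of the cluster 7 have a window with an AP-1 match and 3 one with a RUNX match, whereas 5.2% and 5.27% of all 32851 windows hold one. The AP-1 match is thus shared by genes with large and with small zone differences. Of the 51 members with a window in the table, 10 hold an AP-1 match and 3 a RUNX match.

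Members held at the cell surface differed among themselves. Mmp14, which cleaves collagen and activates pro-Mmp2, had levels of 8.53 to 9.84 (median 9.14) in the HZ and 7.44 to 8.33 (median 8.06) in the PZ of Ezh1/2 mice, and of 6.81 to 9.43 (median 9.27) in the HZ and 7.71 to 8.59 (median 8.14) in the PZ of wild-type mice. The zones of Ezh1/2 mice did not overlap (difference 1.19, standard error 0.32, adjusted p = 0.00614), while those of wild-type mice overlapped through HZ array 1 (6.81) and the difference did not pass (difference 0.67, standard error 0.32, adjusted p = 0.102). Without that array it passed (1.08, adjusted p = 0.000401), so the lack of a wild-type call rests on 1 array. Mmp25, an enzyme of leukocytes with a lipid anchor, was higher in the HZ by 0.56 (standard error 0.09, adjusted p = 6.16e-05) in Ezh1/2 mice and by 0.67 (standard error 0.09, adjusted p = 6.89e-06) in wild-type mice. Mmp16, also able to activate pro-Mmp2, was lower in the HZ by 1.14 (standard error 0.20, adjusted p = 9.61e-05) in Ezh1/2 mice and by 1.14 (standard error 0.20, adjusted p = 8.65e-05) in wild-type mice. Mmp16 levels were 5.15 to 6.32 (median 5.56) in the HZ and 6.30 to 7.27 (median 6.77) in the PZ of Ezh1/2 mice, and 4.56 to 5.68 (median 5.28) and 6.12 to 6.61 (median 6.35) in the same zones of wild-type mice, where they did not overlap. The short membrane protease Mmp23 was lower in the HZ by 0.72 (standard error 0.17, adjusted p = 0.00277) in Ezh1/2 mice and by 0.65 (standard error 0.17, adjusted p = 0.00564) in wild-type mice.

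**Figure D5:**
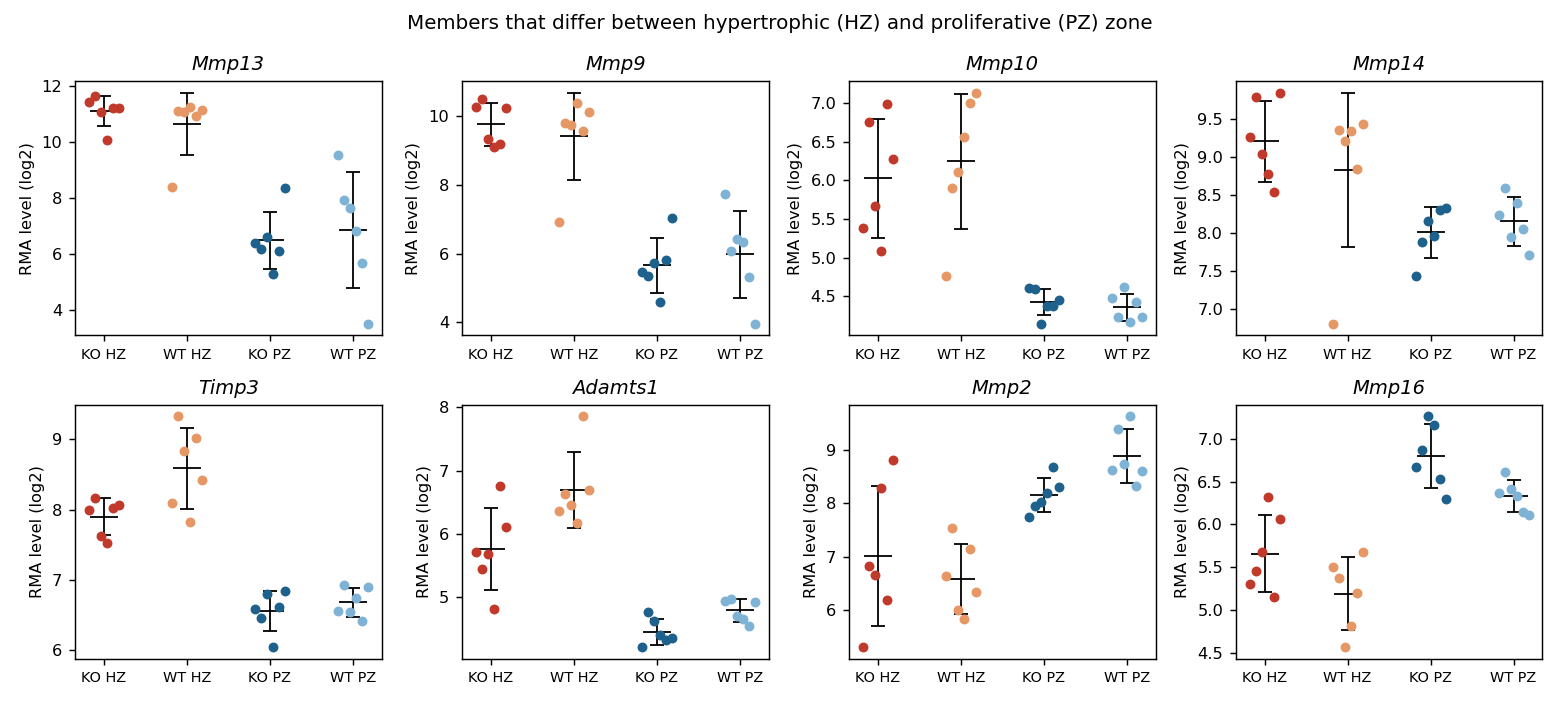
RMA level (log2) of 8 members on each array of the HZ and the PZ of Ezh1/2 (KO) and wild-type (WT) mice. Points are arrays, and bars give the mean and SD of 6 arrays. Mmp13, Mmp9, Mmp10, Timp3 and Adamts1 are higher in the HZ of both genotypes and Mmp2 and Mmp16 lower, and wild-type HZ array 1 lies far below its group for Mmp13 (8.39), Mmp9 (6.91) and Mmp14 (6.81).

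Mmp2, the gelatinase of connective tissue cells, was lower in the HZ. Its levels were 5.31 to 8.82 (median 6.74) in the HZ and 7.75 to 8.67 (median 8.11) in the PZ of Ezh1/2 mice (difference -1.14, standard error 0.41, adjusted p = 0.0354), and 5.84 to 7.53 (median 6.49) in the HZ and 8.32 to 9.62 (median 8.68) in the PZ of wild-type mice (difference -2.30, standard error 0.41, adjusted p = 0.000128). The wild-type zones did not overlap. In the HZ of Ezh1/2 mice arrays 6 (8.82) and 4 (8.28) were the highest, and their perichondrium and fibroblast marker means (8.12 and 7.09, of 8 markers) were also the highest of the group, in which the other 4 arrays ran from 5.09 to 5.90. Both also had the highest skeletal muscle marker means of the group (8.70 and 9.72). Array 3 (8.335) lay close to array 6 for these markers, while its Mmp2 level was 6.66. Without arrays 4 and 6 the Ezh1/2 difference was -1.90 (adjusted p = 0.000103). The Ezh1/2 call was lost when Ezh1/2 PZ array 3, 4, 5 or 6 or Ezh1/2 HZ array 1, 2, 3 or 5 was left out, with differences from -1.15 (PZ array 3, adjusted p = 0.0517) to -0.80 (HZ array 1, adjusted p = 0.116), and after quantile normalization (-0.93, adjusted p = 0.0797).

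Among the ADAMTS proteases that cut aggrecan and versican, Adamts1, Adamts4 and Adamts5 were higher in the HZ of both genotypes. Adamts1 had levels of 4.81 to 6.75 (median 5.69) in the HZ and 4.20 to 4.77 (median 4.38) in the PZ of Ezh1/2 mice (difference 1.31, standard error 0.24, adjusted p = 0.000227), and of 6.18 to 7.86 (median 6.54) in the HZ and 4.53 to 4.97 (median 4.81) in the PZ of wild-type mice (difference 1.91, standard error 0.24, adjusted p = 2.12e-06), without overlap in either. Adamts4 differed by 0.62 (standard error 0.11, adjusted p = 8.00e-05) in Ezh1/2 mice and by 0.46 (standard error 0.11, adjusted p = 0.00165) in wild-type mice, and Adamts5, the main aggrecanase of mouse joint cartilage, by 1.04 (standard error 0.20, adjusted p = 0.000383) in Ezh1/2 and 0.65 (standard error 0.20, adjusted p = 0.0159) in wild-type mice. Both genes had low values. Median Adamts4 levels were 4.25 in the HZ and 3.65 in the PZ of Ezh1/2 mice, and 4.23 and 3.87 in wild-type mice. Median Adamts5 levels were 3.87 in the HZ and 3.08 in the PZ of Ezh1/2 mice, and 3.93 and 3.19 in wild-type mice. The medians of whole arrays ran from 4.33 to 4.48. The wild-type call of Adamts5 was lost after quantile normalization (0.54, adjusted p = 0.0668) and without wild-type numbers 3 and 5 (0.55, adjusted p = 0.12). Of all genes, 19.1% were called higher and 17.7% lower in the Ezh1/2 HZ, and 21.6% and 19% in the wild-type HZ. Of 7 ADAMTS genes in this class, 4 were higher and 2 lower in the Ezh1/2 HZ, and 3 higher and 1 lower in the wild-type HZ. Adamts9 was among the higher in Ezh1/2 mice and the lower in wild-type mice.

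Adamts6 and Adamts10 had opposite zone differences. Adamts6 was higher in the HZ by 0.98 (standard error 0.18, adjusted p = 0.0002) in Ezh1/2 mice and by 1.18 (standard error 0.18, adjusted p = 2.00e-05) in wild-type mice, and Adamts10 lower by 0.57 (standard error 0.15, adjusted p = 0.00608) in Ezh1/2 and by 0.71 (standard error 0.15, adjusted p = 0.000943) in wild-type mice. Adamts7 was higher in the HZ by 0.62 (standard error 0.14, adjusted p = 0.0012) in Ezh1/2 mice and by 0.47 (standard error 0.14, adjusted p = 0.01) in wild-type mice, and Adamts13, which cleaves von Willebrand factor in blood, by 0.72 (standard error 0.19, adjusted p = 0.00604) in Ezh1/2 and by 0.94 (standard error 0.19, adjusted p = 0.000539) in wild-type mice. Adamts3 was lower in the HZ of Ezh1/2 mice (difference -0.93, standard error 0.22, adjusted p = 0.00207), while in wild-type mice it differed by -0.12 (standard error 0.22, adjusted p = 0.676). Adamts3 levels were 5.09 to 6.32 (median 5.73) in the HZ and 6.21 to 7.10 (median 6.64) in the PZ of Ezh1/2 mice, with overlap. Among the ADAMTSL genes, Adamtsl1 was higher in the HZ of Ezh1/2 mice by 0.42 (standard error 0.10, adjusted p = 0.00171) and Adamtsl4 in that of wild-type mice by 0.49 (standard error 0.09, adjusted p = 0.00026), and the genotype effect on either was not shown to differ between zones.

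The sheddases Adam10, which starts Notch cleavage, and Adam17, which releases ligands of the epidermal growth factor receptor and tumour necrosis factor, were higher in the HZ. Adam10 had levels of 6.71 to 7.47 (median 7.22) in the HZ and 5.83 to 6.30 (median 6.09) in the PZ of Ezh1/2 mice (difference 1.07, standard error 0.19, adjusted p = 0.00015), without overlap, and of 5.95 to 7.26 (median 6.93) and 5.61 to 6.69 (median 6.19) in the same zones of wild-type mice (difference 0.61, standard error 0.19, adjusted p = 0.0163), with overlap. The wild-type call of Adam10 was lost without wild-type PZ array 6 (0.50, adjusted p = 0.0516) and without wild-type numbers 3 and 5 (0.42, adjusted p = 0.196). Adam17 differed by 0.68 (standard error 0.20, adjusted p = 0.0136) in Ezh1/2 mice and by 0.81 (standard error 0.20, adjusted p = 0.00362) in wild-type mice.

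The meltrin Adam19 had the largest zone difference of the ADAMs, 1.56 (standard error 0.41, adjusted p = 0.00536) in Ezh1/2 mice and 1.53 (standard error 0.41, adjusted p = 0.00584) in wild-type mice. Its HZ arrays spread over more than 2 units, from 4.58 to 7.16 in Ezh1/2 mice and from 3.92 to 7.28 in wild-type mice, and overlapped with the PZ arrays (3.85 to 4.65 in Ezh1/2 and 3.63 to 4.87 in wild-type mice). A second probe set of Adam19 gave 0.67 in Ezh1/2 and 0.82 in wild-type mice, both called. Its relative Adam12 differed by 0.42 (standard error 0.15, adjusted p = 0.0301) in Ezh1/2 mice, and by 0.21 (standard error 0.15, adjusted p = 0.26) in wild-type mice. The Ezh1/2 call was lost without Ezh1/2 PZ array 1, 2, 3 or 5 or Ezh1/2 HZ array 2 or 6 (adjusted p 0.0511 to 0.0854), and without Ezh1/2 HZ arrays 4 and 6 together (0.36, adjusted p = 0.107). Adam15 was higher in the HZ by 0.54 (standard error 0.13, adjusted p = 0.00231) in Ezh1/2 mice and by 0.51 (standard error 0.13, adjusted p = 0.00317) in wild-type mice, with 1.14 in Ezh1/2 and 1.09 in wild-type mice from a second probe set. Without wild-type numbers 3 and 5 the wild-type calls were also lost for Adam15 (0.30, adjusted p = 0.121), Adam17 (0.61, adjusted p = 0.0575) and Adamts7 (0.39, adjusted p = 0.0934). Adam4, chosen for mention after its values were seen, was the ADAM lower in the wild-type HZ, by 0.86 (standard error 0.28, adjusted p = 0.0212), and in Ezh1/2 mice it differed by -0.39 (standard error 0.28, adjusted p = 0.301). Among the ADAM genes with smaller calls were Adam3, a gene of sperm, which was higher in the HZ of Ezh1/2 mice by 0.40 (standard error 0.09, adjusted p = 0.00167), and Adam26b, by 0.36 (standard error 0.12, adjusted p = 0.0257) in Ezh1/2 mice and 0.49 (standard error 0.12, adjusted p = 0.00338) in wild-type mice. The Ezh1/2 call of Adam26b was lost without PZ array 3 or 5 or HZ array 2 or 5 (0.26 to 0.34, adjusted p 0.0521 to 0.0843). Both genes had low values. Median Adam3 levels were 3.88 in the HZ and 3.51 in the PZ of Ezh1/2 mice, and 3.77 and 3.64 in wild-type mice. Those of Adam26b were 3.72 and 3.49, and 3.74 and 3.25. The medians of whole arrays ran from 4.33 to 4.48. The counts that follow include such genes. In all, 11 of 33 ADAM genes were higher and 1 lower in the Ezh1/2 HZ, and 10 higher and 1 lower in the wild-type HZ (33.3% and 3.03% in Ezh1/2 mice, 30.3% and 3.03% in wild-type mice, against 19.1% and 17.7%, and 21.6% and 19%, of all genes).

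Of the 4 inhibitors Timp3 alone was called in both genotypes. Timp3, which binds to the matrix and also inhibits ADAMs and ADAMTS proteases, had levels of 7.53 to 8.16 (median 8.01) in the HZ and 6.04 to 6.84 (median 6.60) in the PZ of Ezh1/2 mice (difference 1.34, standard error 0.19, adjusted p = 8.49e-06), and of 7.82 to 9.33 (median 8.62) in the HZ and 6.41 to 6.92 (median 6.65) in the PZ of wild-type mice (difference 1.90, standard error 0.19, adjusted p = 5.52e-08). The zones did not overlap in either genotype, so Timp3 was higher in the same zone as Mmp13, Mmp9, Adamts1, Adamts4 and Adamts5. Timp2, the inhibitor that takes part in the activation of pro-Mmp2 by Mmp14, was lower in the HZ of wild-type mice by 0.79 (standard error 0.22, adjusted p = 0.00767), and by 0.48 (adjusted p = 0.0533) without the 3 HZ arrays of narrow range. In Ezh1/2 mice Timp2 differed by 0.19 (standard error 0.22, adjusted p = 0.537). Timp1 differed by 0.01 (standard error 0.21, adjusted p = 0.969) in Ezh1/2 mice and by 0.05 (standard error 0.21, adjusted p = 0.868) in wild-type mice, and Timp4 by 0.02 (standard error 0.11, adjusted p = 0.886) in Ezh1/2 and by 0.25 (standard error 0.11, adjusted p = 0.0821) in wild-type mice.

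Genes that act with these proteases were counted in the same way, and the shares of all genes called higher and lower in the HZ (19.1% and 17.7% in Ezh1/2 mice, 21.6% and 19% in wild-type mice) apply to each list. Of 8 proprotein convertase and plasminogen activation genes, Ezh1/2 mice had 6 higher in the HZ and wild-type mice 5 (median difference 0.54 in Ezh1/2 and 0.82 in wild-type mice), and the largest was the convertase Pcsk6 (2.65 in Ezh1/2 and 3.14 in wild-type mice). Furin, the convertase that activates Mmp14 and many ADAMs, was higher by 0.41 in Ezh1/2 and 0.70 in wild-type mice, and the urokinase receptor Plaur by 1.56 in Ezh1/2 and 2.19 in wild-type mice. Of 8 other inhibitors, 3 were higher and 2 lower in Ezh1/2 mice and 2 higher and 1 lower in wild-type mice. The general protease inhibitor A2m was lower in the HZ (-2.32 in Ezh1/2 and -2.46 in wild-type mice), and the membrane MMP inhibitor Reck was lower in Ezh1/2 mice by 0.55 (standard error 0.19, adjusted p = 0.0275). Among 9 partners of Adam17 and Adam10, Frmd8, which holds Adam17 complexes at the surface, was higher in the HZ by 0.93 in Ezh1/2 and 0.93 in wild-type mice, and the tetraspanin Tspan17 was lower (-1.04 in Ezh1/2 and -1.15 in wild-type mice). Of 16 membrane proteins that ADAMs shed, 9 were higher and 1 lower in Ezh1/2 mice and 8 higher in wild-type mice, led by the hyaluronan receptor Cd44 (2.50 in Ezh1/2 and 2.36 in wild-type mice).

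Of 14 matrix substrates, 3 were higher and 6 lower in the Ezh1/2 HZ, and 3 higher and 5 lower in the wild-type HZ. These are 21.4% and 42.9% in Ezh1/2 mice, and 21.4% and 35.7% in wild-type mice. Those higher in both were Col10a1 (3.65 in Ezh1/2 and 3.27 in wild-type mice) and fibronectin (2.31 in Ezh1/2 and 2.0 in wild-type mice), and those lower in both included Col9a1 (-1.66 in Ezh1/2 and -1.19 in wild-type mice) and Matn1 (-1.72 in Ezh1/2 and -1.24 in wild-type mice). Of 12 matrix proteases of other families, 7 were higher and 1 lower in Ezh1/2 mice and 6 higher in wild-type mice, among them the procollagen C-proteinase Bmp1 (1.74 in Ezh1/2 and 1.48 in wild-type mice). Of the genes on these lists, the metalloproteinase Pappa2 was the only one called between the genotypes. It was higher in the PZ of Ezh1/2 mice by 1.62 (standard error 0.14, adjusted p = 0.000122), and its genotype effect was smaller in the HZ than in the PZ (difference -1.42, standard error 0.25, adjusted p = 0.0236), the opposite order to that of Adamts9.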

How the data were processed

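RNA of each laser-captured zone was amplified and hybridised by the authors to Affymetrix Mouse Gene 2.0 ST arrays, 1 array for each of 24 samples. The deposited values are log2 expression levels, which the submitters' processing notes give as RMA, and the study's methods name Partek Genomics Suite. RMA subtracts background and normalizes across arrays, so values carry no detection call, and the number of arrays limits the precision. No scan date or slide was used.

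The deposited values were analysed with limma 3.58.1 in R 4.3.3, with Benjamini-Hochberg adjustment over all 41345 probe sets and a threshold of 0.05. Genotypes were compared within a zone over 12 arrays. Zones, and the difference of genotype effects between zones, were fitted over 24 arrays with the animal as a random block, since the methods took both zones from the same animals. The pairing check gave correlations of same-numbered zones from -0.125 to 0.282, a within-animal correlation of 0.0966, and unlike sex-linked genes between zones for wild-type numbers 3 and 5. Each gene was represented by its own probe set of highest mean level. The fits were tested on simulated data. Promoter windows are from RefSeq (GRCm38.p6), and 51 of 82 members matched. Marker means were compared by exact permutation over 924 arrangements (smallest two-sided p 0.0022).

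The members and lists were chosen with earlier results of these data known. The genes named are 6 given markers, a set of cartilage proteases and inhibitors, up to 30 members past the threshold by adjusted p, and the 5 lowest unadjusted p of each genotype comparison and of the difference between zones (37 genes). Alternatives were another variance model, quantile normalization, a filter on low levels, means of probe sets, the methods' thresholds, blocks and arrays left out. Leaving out wild-type arrays 1 of both zones, or Ezh1/2 HZ arrays 4 and 6, was chosen after seeing the data.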

Additional observations from a re-analysis of the deposited data

Results flagged for a closer look

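Of 148 groups of 6 arrays examined for the named members, 11 had 1 array far from the others, and chance gives about 1 in 20 groups. In the wild-type HZ, array 1 was the lowest for Mmp13 (8.39, next 10.9), Mmp9 (6.91, next 9.56) and Mmp14 (6.81, next 8.84), and array 5 the highest for Adamts1 (7.86, next 6.69). In the HZ of Ezh1/2 mice, array 4 was the lowest for Mmp13 (10.1, next 11.1) and array 2 the highest for Mmp3 (4.56, next 3.85). In the PZ of Ezh1/2 mice, array 1 was the highest for Adamts13 (4.3, next 3.97). In the wild-type PZ, array 1 was the highest for Adamts5 (4.0, next 3.25) and the lowest for Adamts3 (5.58, next 6.31), array 3 the highest for Mmp25 (4.14, next 3.91) and array 6 the highest for Adamts13 (4.17, next 3.83).

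Adamts9 was the member whose genotype effect differed between the zones by a test of the difference itself, by 1.52 (limma, adjusted p = 0.00234). In the HZ 6 of 6 Ezh1/2 arrays lay above every wild-type array, whereas the PZ groups overlapped.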

How the results depend on the processing

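The number of members called in the PZ between Ezh1/2 and wild-type mice (1) was 2 with an unmoderated test, 2 at the methods' unadjusted p under 0.001 with a fold change over 1.3, 0 among the 29 members above the median level, where Adam33 was not tested, and 1 to 2 with 1 array left out. The number in the HZ (1) was 0 with an unmoderated test, 0 without the 3 HZ arrays of narrow range, 0 without Ezh1/2 HZ arrays 4 and 6, and 0 to 1 with 1 array left out. Same-numbered arrays of the 2 genotypes had correlations from -0.102 to 0.274. Ezh1/2 HZ arrays 1, 2, 3 and 5 and Ezh1/2 PZ array 1 correlated best with the wild-type array of their own number. What the replicate number marks across genotypes is not known. With that number as a replicate block the counts were 0 in the PZ (Adam33 adjusted p = 0.0552) and 0 in the HZ (Adamts9 adjusted p = 0.135). Of the zone calls, 36 in Ezh1/2 mice were 19 under the level filter, 20 at the methods' thresholds and 29 to 42 with 1 array left out, and 34 in wild-type mice were 19, 17 and 27 to 35. Without the replicate block they were 33 and 33, and with the block but without wild-type numbers 3 and 5 they were 34 and 24. The difference between zones gave 1 member in every setting, with or without the block (1 to 1 with 1 array left out). Over 69 results of named genes that were called or had the lowest unadjusted p, 629 of 671 values under other settings and 850 of 888 with 1 array left out kept their direction and call, 40 and 37 lost the call, 2 and 1 gained it, and 0 changed sign. Among uncalled values, the HZ genotype differences of Mmp13, Mmp9 and Mmp14 changed sign without wild-type HZ array 1. The causes were not tested. Low levels have no detection call, so calls of genes with low values and small differences are the least certain.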
